A study of Rattus norvegicus with 4 samples.

Results

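miR-10a and miR-10b are a pair of closely related microRNAs (miRNAs), each cut from a hairpin that lies in a cluster of Hox genes. They were followed here in small RNA from rat exosomes, the small vesicles that cells release. Members were taken by the name of the hairpin, rno-mir-10a or rno-mir-10b, and are 2 of the 262 named hairpins with counts. They held 71958 of the 242362 counts on named hairpins, carried by 198 of the 1665 distinct read sequences (tags) in the Exo-ADSCs library with tag counts and by 82 of 610 and 351 of 2256 in the 2 Exo-AT libraries. The pair was selected on its high counts and on its read lengths, short in Exo-ADSCs, in these same libraries, so the values below describe that contrast and are no independent test of it.

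Exo-AT are exosomes of minced adipose tissue explants of Sprague-Dawley rats aged 4 weeks, stirred in culture for 3 days. Exo-ADSCs are exosomes of cultured adipose stem cells at passage 3, kept without serum for 3 days. An explant holds the mixed cells of the tissue, whereas the stem cells are a passaged culture. The series has 4 libraries, 2 per group, and no label says whether replicates are separate animals or cultures. The p-values therefore reflect only the spread of these libraries, which may be technical. Tag counts were used for 3 of them: Exo-ADSCs replicate 2 (the stem cell library below), Exo-AT replicate 1 (tissue library 1) and Exo-AT replicate 2 (tissue library 2). Values of 3 libraries are given in this order. Those of the stem cell library have no SD.

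Mature miRNAs guide Argonaute proteins to messenger RNAs, and pairing runs mainly through the seed, bases 2 to 8 from the 5′ end. A shift of the 5′ end therefore changes the seed, while a shift of the 3′ end leaves it as it was. The Hox clusters set position along the body axis, and adipose stromal cells keep a Hox pattern of the place they come from. miR-10 miRNAs belong with miR-99, miR-100 and miR-125 to one of the oldest miRNA families of animals.

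In GRCr8 the RefSeq hairpin of Mir10b lies at chr3:80035859-80035967 on the plus strand, within the span of Hoxd4, and its nearest other neighbours are Hoxd8 and Hoxd3. Mir10a lies at chr10:81779709-81779818 on the plus strand, between Hoxb5 and Hoxb4. The gene table used here gives spans only, so exon or intron is not stated. Both hairpin sequences in the files equal those of RefSeq. The sequences that carry the results are the RefSeq mature forms and the leading tag of each group, printed 5′ to 3′ with the seed in capitals.
rno-miR-10b-5p in RefSeq: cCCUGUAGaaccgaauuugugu
rno-miR-10a-5p in RefSeq: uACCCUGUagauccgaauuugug
miR-10b-5p, leading tag of the stem cell library: tACCCTGTagaaccgaat
miR-10b-5p, leading tag of both tissue libraries: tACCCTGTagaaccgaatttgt
miR-10a-5p, leading tag of the stem cell library: tACCCTGTagatccgaat
miR-10a-5p, leading tag of both tissue libraries: tACCCTGTagatccgaatttgt

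Bases are counted below from base 1 at this usual 5′ start of the reads. The members' reads differ from each other by A12T alone (A in miR-10b-5p, T in miR-10a-5p, at position 12) within the stretch printed. They share the seed ACCCTGT as read. The RefSeq entry of miR-10a-5p starts at the reads' base 1, but that of miR-10b-5p starts 2 bases later and so lists another seed, CCUGUAG. Reads that began at that listed base made up 0 of 12770 miR-10b-5p counts in the stem cell library, which allows up to 3 counts, 17 of 2259 in tissue library 1 and 233 of 37065 in tissue library 2. The last 2 are 0.753% (Wilson 95% interval 0.470 to 1.20) and 0.629% (0.553 to 0.714) of miR-10b-5p.

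The 5p arm made up nearly all product of both hairpins. miR-10b-5p had 12770 counts in the stem cell library, which is 13.1% of named miRNA counts (Wilson 95% interval 12.9 to 13.4) and the third rank. It had 2259 counts in tissue library 1, or 24.7% (23.9 to 25.6), and 37065 in tissue library 2, or 27.2% (27.0 to 27.5), and ranked first in both. miR-10a-5p had 6603 counts, or 6.79% (6.64 to 6.95), in the stem cell library, and ranked 6 there. It had 902 counts, or 9.88% (9.28 to 10.5), in tissue library 1 and 12338 counts, or 9.07% (8.92 to 9.22), in tissue library 2, with ranks 3 and 4. Both shares were thus higher in each tissue library than in the stem cell library. Together the pair took 19.9%, 34.6% and 36.3% of named counts in that order of libraries. Intervals cover counting error only.

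The opposite arms were near the limit of counting. miR-10b-3p had 4 counts in the stem cell library, 3 in tissue library 1 and 8 in tissue library 2. miR-10a-3p had 0, 0 and 6. The libraries' tags of miR-10b-3p ran 1 base past the RefSeq 3′ end:
rno-miR-10b-3p in RefSeq: aCAGAUUCgauucuaggggaa
miR-10b-3p, the tag in both tissue libraries: acagattcgattctaggggaat
At these counts no difference of the 3p arms was detectable. The miR-10b-3p log2 fold change, Exo-AT over Exo-ADSCs, was 0.64 (SE 2.63, edgeR adjusted p = 0.871), and miR-10a-3p was below the filter on low counts.

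**Figure D1:**
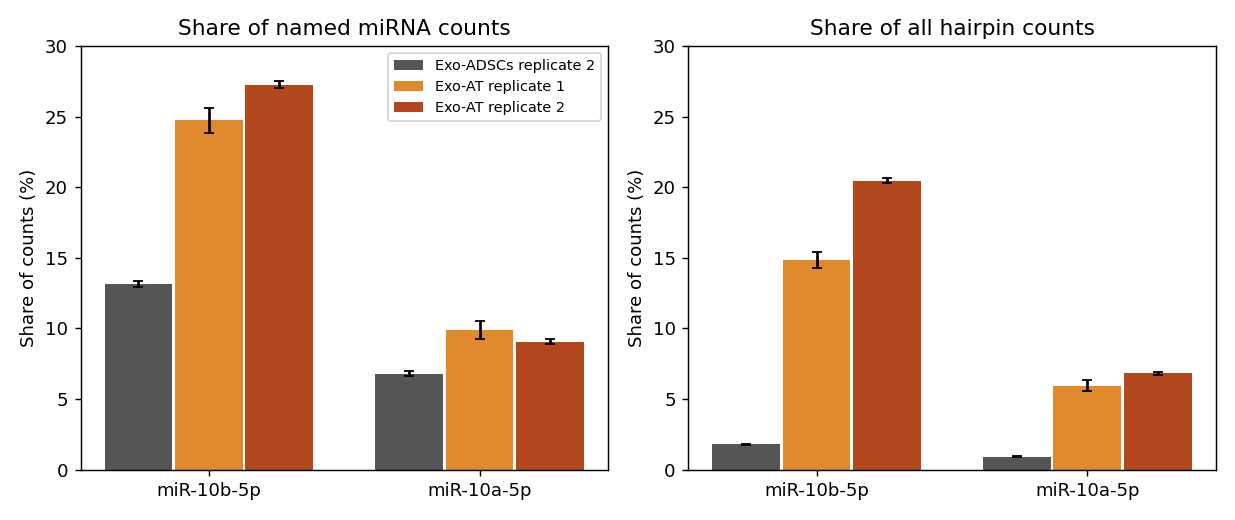
Share of counts (%) of miR-10b-5p and miR-10a-5p in each of the 3 libraries, of named miRNA counts on the left and of all counts assigned to hairpins, predicted hairpins included, on the right. Bars are single libraries with Wilson 95% intervals. miR-10b-5p stood at 13.1% of named counts in the stem cell library and at 24.7% and 27.2% in Exo-AT, and at 1.79% against 14.9% and 20.5% of all hairpin counts.

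Whether the level of the pair differed between the vesicles of tissue and of stem cells depended on what it was measured against. With TMM scaling, which assumes that most miRNAs do not differ, miR-10b-5p stood at 199010 CPM (counts scaled to a common library size) in the stem cell library and at 178558 and 252121 CPM in the tissue libraries, a mean of 215340 ± 52017 CPM (SD, n = 2). The Exo-ADSCs value lay between those of the tissue libraries. Its log2 fold change was 0.11 (SE 0.24, edgeR adjusted p = 0.741). miR-10a-5p stood at 102902 CPM against 71297 and 83925 CPM, a mean of 77611 ± 8929 CPM (SD, n = 2). Both Exo-AT values were lower than the Exo-ADSCs value, with a log2 fold change of -0.41 (SE 0.25, edgeR adjusted p = 0.206). Neither member passed the test, in a table where 19.1% of the 183 miRNAs were called higher and 19.1% lower in Exo-AT.

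Scaled to the total of named counts instead, the log2 fold changes were 0.98 for miR-10b-5p and 0.47 for miR-10a-5p, the latter with its sign turned, and neither passed. Hairpins that the authors predicted themselves held 86.4% of all hairpin counts in the stem cell library, 39.9% in tissue library 1 and 24.9% in tissue library 2. Against all hairpin counts miR-10b-5p was at 1.79% in the stem cell library and at 14.9% and 20.5% in Exo-AT, and miR-10a-5p was at 0.923% against 5.93% and 6.81%. On that scale, added after the data were seen, both were called higher in Exo-AT, with log2 fold changes of 3.31 (SE 0.45) and 2.79 (SE 0.40), but so were 59.6% of all miRNAs, with 2.73% called lower. From tags of 20 to 25 nt alone both were called higher, at 1.70 (SE 0.45) and 1.34 (SE 0.36), where 23.1% of 130 miRNAs were higher and 22.3% lower. That filter takes out 85.6% of miR-10b-5p and 90.1% of miR-10a-5p in the stem cell library and far less in Exo-AT. These 2 calls therefore restate the length contrast on which the pair was selected. Without tags that fit several hairpins miR-10a-5p was called lower at -0.62 (SE 0.23), where 21.3% of 178 miRNAs were lower and 17.4% higher. Such tags held only 0.303%, 0% and 0.559% of miR-10a-5p itself in the 3 libraries. The median of all tested miRNAs was 0.37 with TMM, 1.21 with named totals and 3.55 with all hairpin counts. Relative to that median, with TMM, miR-10b-5p stood at -0.26 and miR-10a-5p at -0.78 on the log2 scale, and a change of scale alone leaves these nearly as they are. They were at 0.52 and -0.01 without the filter on low counts, at 1.33 and 0.97 with tags of 20 to 25 nt, and at 0.08 and -0.29 without tissue library 2. With tags of no mismatch or indel they were lower, at -0.83 and -1.36. Without tags that fit several hairpins they were at -0.34 and -0.86.

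The 3′ ends of the members separated the libraries more clearly, and a share of a miRNA's own reads needs no scaling between libraries. Reads of both members ended mainly at 2 places, at base 18 or 19 and at base 22. Of miR-10b-5p counts, 84.1% ended at base 18 or 19 in the stem cell library, 20.3% in tissue library 1 and 15.8% in tissue library 2. Those ending at base 22 were 12.6%, 71.1% and 75.2%. Of miR-10a-5p counts, 89.0%, 37.7% and 33.7% ended at base 18 or 19, and 7.62%, 47.8% and 54.8% at base 22. The tissue libraries were close to each other and far from the stem cell library. The Wilson 95% intervals of the shares of a member's own reads, by end or start, reach at most 3.25 percentage points to a side for miR-10a-5p in tissue library 1, the shallowest, and at most 1.87 points elsewhere.

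The places between were thinly used in all 3 libraries. Ends at base 20 or 21 held 1.04%, 3.14% and 3.83% of miR-10b-5p and 1.91%, 8.09% and 6.14% of miR-10a-5p. The reads also stopped short of the RefSeq 3′ ends, base 23 for miR-10a-5p and base 24 for miR-10b-5p. Ends at base 23 held 0.121%, 1.22% and 0.948% of miR-10a-5p, and ends at base 24 held 0.298%, 0.974% and 1.06% of miR-10b-5p.

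**Figure D2:**
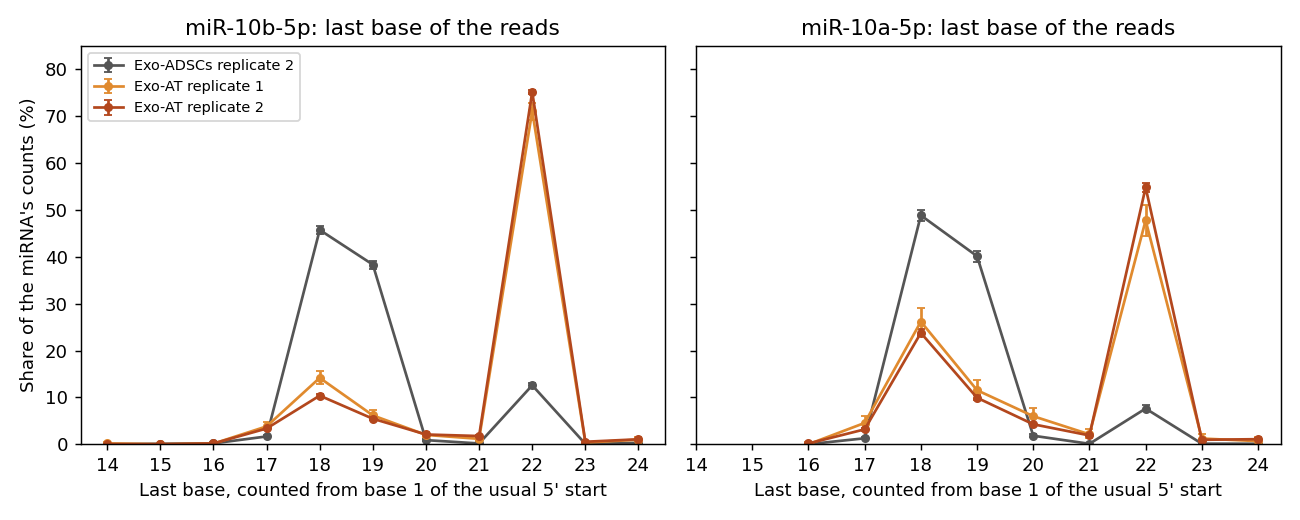
Share of each miRNA's counts (%) by the last base of the read, counted from the usual 5′ start, for miR-10b-5p on the left and miR-10a-5p on the right. Points are single libraries with Wilson 95% intervals. The stem cell library peaks at bases 18 and 19, the tissue libraries at base 22, with a second peak at base 18 that is taller for miR-10a-5p (26.2% and 23.8%) than for miR-10b-5p (14.2% and 10.4%).

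Set against each other, reads ending at base 22 and reads ending at base 18 or 19 of miR-10b-5p stood in a ratio of 0.150 in the stem cell library and of 3.50 and 4.75 in the tissue libraries. For miR-10a-5p the ratios were 0.0856 against 1.27 and 1.63. On the log2 scale the Exo-AT mean was 2.03 ± 0.31 (SD, n = 2) against -2.74 for miR-10b-5p, a difference of 4.77, and 0.52 ± 0.25 (SD, n = 2) against -3.55 for miR-10a-5p, a difference of 4.07. Both differences exceeded the spread between the tissue libraries. An exact permutation test over 1 library against 2 cannot give a p below 0.333 and was not used. Mean read lengths were 18.8, 20.9 and 21.1 nt for miR-10b-5p and 18.6, 20.2 and 20.4 nt for miR-10a-5p.

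Read forms were tested next, each a miRNA arm with 1 start and 1 length, fitted over the 708 forms of all named miRNAs that passed the filter. Of these forms 22.3% were called higher and 23.0% lower in Exo-AT. Of 41 forms of miR-10a-5p with a count, 27 were tested, 12 of them of 19 nt or less and 15 longer. Among the shorter, 1 was higher and 4 lower, and among the longer, 6 were higher and 2 lower. Of 47 forms of miR-10b-5p, 34 were tested, with 2 higher and 4 lower among 15 short forms and 9 higher and 4 lower among 19 long ones. Across all named miRNAs 32 of 221 short forms were higher and 69 lower, and 126 of 487 long forms were higher and 94 lower. The share of short forms called lower was thus 33.3% for miR-10a-5p and 26.7% for miR-10b-5p beside 31.2% over all miRNAs, near that background.

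Full-length forms were called higher in Exo-AT. These calls, and those of short forms below, restate the length contrast on which the pair was selected and are no independent support for it. The 22-nt form of miR-10b-5p at the usual start had 1422 counts in the stem cell library, 1340 in tissue library 1 and 23099 in tissue library 2, which was 11.1%, 59.3% and 62.3% of the miRNA. Its log2 fold change was 2.11 (SE 0.51, edgeR adjusted p = 0.00785). The 22-nt form of miR-10a-5p had 391, 351 and 5188 counts, or 5.92%, 38.9% and 42.0%, and a log2 fold change of 1.91 (SE 0.47, edgeR adjusted p = 0.00887). The forms that start 1 base later and also end at base 22 had log2 fold changes of 3.00 (SE 0.52) for miR-10b-5p and 1.93 (SE 0.51) for miR-10a-5p, both past the threshold. The 21-nt form of miR-10a-5p at the usual start passed too, with 6, 19 and 193 counts. The median of all tested forms was 1.47, so the 22-nt forms stood 0.64 and 0.43 above it. Without tissue library 2 the 22-nt values were 1.16 for miR-10b-5p and 1.09 for miR-10a-5p, and the 21-nt form of miR-10a-5p 1 base later was at 0.91, where the median of all forms was 0. The miR-10b-5p 22-nt call was lost without the filter on low counts.

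The short forms with the most counts in the stem cell library were called lower in Exo-AT. Over all tested forms of 19 nt or less the median log2 fold change was nevertheless positive. It was 1.46 for miR-10b-5p and 1.00 for miR-10a-5p, beside 0.70 over all named miRNAs. The 18-nt form of miR-10b-5p had 5011 counts in the stem cell library, 263 in tissue library 1 and 3161 in tissue library 2, or 39.2%, 11.6% and 8.53% of the miRNA. Its log2 fold change was -2.36 (SE 0.40, edgeR adjusted p = 0.00108). The 18-nt form of miR-10a-5p had 2742, 182 and 2153 counts, or 41.5%, 20.2% and 17.5%, and a log2 fold change of -2.03 (SE 0.40, edgeR adjusted p = 0.00233). The 19-nt forms had log2 fold changes of -3.12 and -2.86, and the forms of 17 and 18 nt that start 1 base later lay between -3.45 and -1.53, all called. With named totals as the scale the 18-nt forms at the usual start were at -1.0 and -0.67 and no longer called, nor was the 17-nt form of miR-10a-5p 1 base later, which also missed the threshold without the filter. Against all hairpin counts each of these called short forms turned to a positive value, between 0.21 and 2.13.

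Not every short form was called. The 17-nt forms at the usual start had 181, 65 and 981 counts of miR-10b-5p, with a log2 fold change of 0.61 (SE 0.44), and 72, 23 and 271 of miR-10a-5p, with 0.24 (SE 0.45). The 20-nt form of miR-10a-5p was at 0.54 (SE 0.43) and its 19-nt form 1 base earlier at 1.54 (SE 0.62). None of these 4 passed the threshold with TMM scaling. With named totals as the scale all 4 were called higher, at 1.93, 1.56, 1.89 and 2.80 in the order given, and without the filter the 19-nt form 1 base earlier was called at 1.77. By the rule of at least 2% of the arm in some library, 11 forms of miR-10a-5p and 8 of miR-10b-5p were named, of which 8 and 7 were called. Over all named miRNAs 321 of 708 forms were called. The named forms were picked for a high share in at least 1 of these libraries, so their calls cannot be set against that background.

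**Figure D3:**
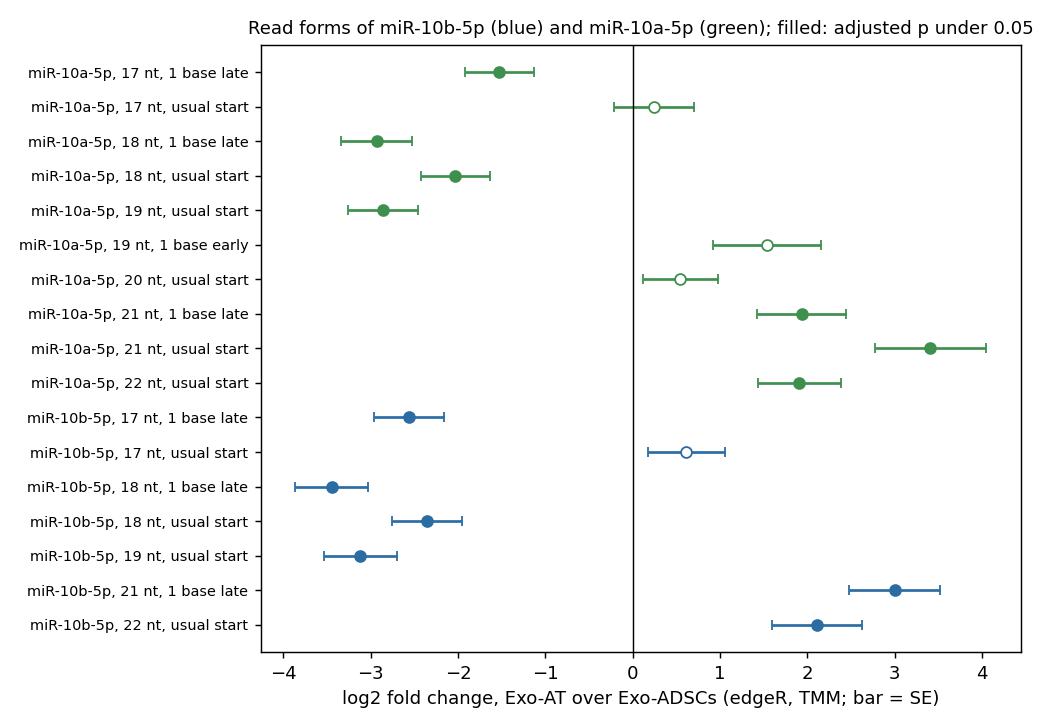
Log2 fold change, Exo-AT over Exo-ADSCs with TMM scaling, of the named read forms of miR-10a-5p (green) and miR-10b-5p (blue) with more than 3 counts in the stem cell library. Points are edgeR estimates, bars SE, and filled points have an adjusted p under 0.05. Forms that end at base 18 or 19 lie at negative values, except the 19-nt form 1 base early (1.54), and forms that end at base 22 lie between 1.91 and 3.00.

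The members did not have the same balance of ends. miR-10a-5p made up 34.1% of the pair's 5p counts in the stem cell library (Wilson 95% interval 33.4 to 34.8), 28.5% in tissue library 1 (27.0 to 30.1) and 24.97% in tissue library 2 (24.6 to 25.4). Among reads ending at base 18 it was lowest in the stem cell library, 35.6% (34.6 to 36.6), 42.4% (38.4 to 46.6) and 43.3% (42.1 to 44.4). The tissue intervals overlap there. Among reads ending at base 19 it was 35.1% (34.1 to 36.2), 42.8% (36.7 to 49.1) and 37.8% (36.1 to 39.4), and among those ending at base 20 or 21 it was 48.6% (42.6 to 54.7), 50.7% (42.6 to 58.7) and 34.8% (32.8 to 36.8). Among reads ending at base 22 the share was 23.9% (22.1 to 25.7), 21.2% (19.4 to 23.0) and 19.5% (19.1 to 19.9). In each library miR-10a-5p thus had a larger part of the reads ending at base 18 or 19 than of those ending at base 22. The length profiles of the members differed by 5.86% of counts in the stem cell library and by 21.2% and 20.7% in the tissue libraries, as total variation distance (the share of counts that would have to move). Tags that fit both members, with a base at position 12 that is neither A nor T, held 0.206%, 0% and 0.279% of the pair's counts, and no member tag was also assigned to a hairpin outside the pair.

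**Figure D4:**
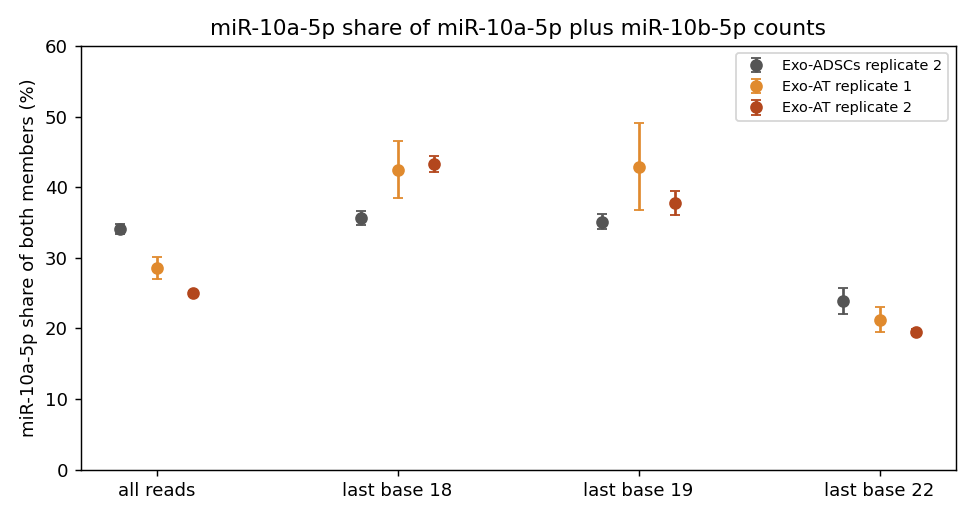
miR-10a-5p as a share (%) of miR-10a-5p plus miR-10b-5p counts, over all reads and by the last base of the read, in each library with Wilson 95% intervals. Over all reads the stem cell library is highest at 34.1%, whereas among reads with last base 18 it is lowest at 35.6%.

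The 5′ ends, which set the seed, were alike in most reads. The usual start held 84.1%, 82.2% and 82.0% of miR-10b-5p and 80.9%, 77.6% and 75.2% of miR-10a-5p in the stem cell library, tissue library 1 and tissue library 2. Reads starting 1 base later, whose seed is CCCTGTA, held 14.9%, 12.2% and 11.1% of miR-10b-5p and 17.9%, 16.2% and 16.2% of miR-10a-5p.

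Starts 1 base earlier were rare in the stem cell library and more common in both tissue libraries. They held 0.102%, 4.87% and 6.15% of miR-10b-5p and 0.591%, 6.21% and 7.23% of miR-10a-5p. Most of them in Exo-AT carried A1G, a G in the read at its first base where the hairpin has A. Such reads had 0, 83 and 1737 counts of miR-10b-5p and 0, 42 and 689 of miR-10a-5p. Reads 1 base earlier with no mismatch held only 0%, 0.841% and 0.996% of miR-10b-5p and 0.485%, 1.33% and 1.22% of miR-10a-5p. Most of the contrast at this start thus lay in reads that do not match the hairpin. The leading tags, with that base in capitals, were the following.
miR-10b-5p, 1 base earlier: Gtaccctgtagaaccgaatttgt
miR-10a-5p, 1 base earlier: Gtaccctgtagatccgaatttgt
The 23-nt form 1 base earlier of miR-10b-5p had 0, 69 and 1671 counts and was at least 132-fold higher in Exo-AT, as the mean of the TMM-scaled tissue libraries over the stem cell library set at the floor of 3 counts. The bound was 79.5-fold for tissue library 1 alone and 184-fold for tissue library 2. It covers kept tags only, those with at least 2 reads. That of miR-10a-5p had 3, 26 and 470 counts, a ratio of 29.96 for tissue library 1 and 51.8 for tissue library 2. Over the pooled counts the ratio was 49.9 (exact 95% counting interval 17.0 to 243), and most of these counts are from tissue library 2. Its fitted log2 fold change was 5.35, and 4.21 without tissue library 2. Over all starts, A1G was found in 3.92% (Wilson 95% interval 3.30 to 4.64), 21.2% (18.05 to 24.6) and 26.2% (25.3 to 27.1) of the pair's reads for which the hairpin has A at that base. In all other named miRNAs it was found in 0.121% (0.0768 to 0.192), 4.95% (3.87 to 6.33) and 4.98% (4.65 to 5.33). A1G was thus seen beyond the pair, at a lower share in each library, but the shares rest on unlike sets of reads. The usual start of the pair is at T, so its shares are of 3242, 591 and 9282 counts at other starts. The other miRNAs include some whose usual first base is A, such as miR-100-5p. Any mismatch at the first base held 0.779%, 6.45% and 7.06% of the pair's counts and 0.358%, 4.12% and 4.85% of the others'. The part of the libraries' preparation in this was not tested.

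Extended or altered reads were also seen in the stem cell library. Reads starting 3 bases earlier had 98 counts of miR-10b-5p and 30 of miR-10a-5p there and 0 in both tissue libraries. A1G stood in 97 counts of miR-10b-5p and 30 of miR-10a-5p in the stem cell library, none of them starting 1 base earlier. These may largely be the same reads as those starting 3 bases earlier, but the overlap was not counted. Reads with an extra CAT before base 1, which the hairpins do not encode, had 39 and 19 counts there and 0 in Exo-AT.
miR-10b-5p, 3 bases earlier: GTAtaccctgtagaaccgaatttgt
miR-10b-5p, extra CAT: CATtaccctgtagaaccgaatttgt
The substitution A11C, counted from the first base of the read, was found in 2.28% of the pair's reads with A there in the stem cell library (408 of 17933 counts), in 0 of 2832 in tissue library 1, which allows up to 0.106%, and in 0.0640% in tissue library 2. Other named miRNAs had it in 1.90%, in 0 of 1243 counts (allowing up to 0.241%) and in 0.0264%, so it too was shared beyond the pair. Further substitutions in the stem cell library were not all shared alike. G15T was at 0.961% in the pair and 0.150% in the others, and C4A at 0.392% and 0.214%. C5A was at 0.622% and 0.498%, and A15C at 2.36% and 2.43%.

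Shortening was not uniform among miRNAs. Reads of 19 nt or less made up 85.6% of miR-10b-5p and 90.1% of miR-10a-5p in the stem cell library, which ranked 11 and 8 of the 44 miRNAs with at least 100 counts, where the median was 21.0%. In tissue library 1 they made up 24.3% and 42.4%, ranks 3 and 2 of 12 with a median of 15.9%, and in tissue library 2 they made up 19.3% and 37.3%, ranks 24 and 8 of 68 with a median of 10.8%. miR-10a-5p was thus among the miRNAs with the most short reads in all 3 libraries. Short reads made up 97.4% of the relative miR-99b-5p in the stem cell library, 50% in tissue library 1 and 46.9% in tissue library 2. They made up 95.9%, 19.6% and 15.5% of miR-100-5p in the same order. For miR-99a-5p the shares were 73.1% (of 119 counts), 18.3% and 18.4%. Of the other relatives in the stem cell library, miR-125a-5p had 0% short reads of 10 counts and miR-125b-5p had 73.3% of 30. High shares there were not limited to the family, with 100% for miR-297-3p and 97.9% for miR-203a-3p. In the stem cell library the leading tags of the pair, and those of miR-99a-5p, miR-99b-5p and miR-100-5p, all of 18 nt, stopped soon after a shared CCGA, printed in capitals.
miR-10b-5p: taccctgtagaaCCGAat
miR-10a-5p: taccctgtagatCCGAat
miR-99a-5p: aacccgtagatCCGAtct
miR-99b-5p: cacccgtagaaCCGAcct
miR-100-5p: aacccgtagatCCGAact
CCGA lies 1 base earlier in miR-99 and miR-100 than in the pair. The longer leading tags of the tissue libraries hold CCGA too, and its part in the ends was not tested.

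**Figure D5:**
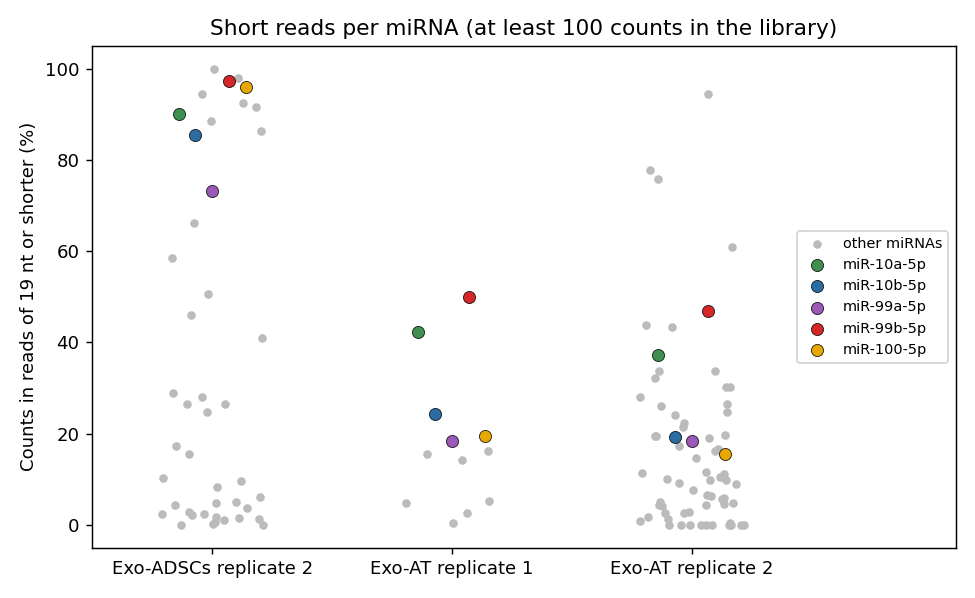
Share of counts (%) in reads of 19 nt or less for each miRNA with at least 100 counts, by library. Grey points are other miRNAs, spread sideways at random. The pair stands at 85.6% and 90.1% in the stem cell library and below 45% in both tissue libraries.

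The wider family held calls in both directions. Of 10 arms of miR-99a, miR-99b, miR-100, miR-125a and miR-125b with a count, 7 were tested, 2 were higher in Exo-AT and 2 lower, with a median log2 fold change of 0.05 beside 0.37 over all miRNAs. Over all 183 miRNAs 19.1% were called in each direction, so these counts are near the background. miR-99a-5p, with 119, 529 and 5890 counts, was at 4.46 (SE 0.36), and miR-125b-5p, with 30, 46 and 446 counts, at 2.82 (SE 0.52). miR-99b-5p, with 21742, 292 and 3371 counts, was at -3.88 (SE 0.25), and miR-100-5p, with 9989, 230 and 2569 counts, at -3.13 (SE 0.25). The members of the pair lay between these. Other miRNAs encoded in Hox clusters, miR-196a, miR-196b, miR-196c and miR-615, were scarce: 5 arms had a count, with 29, 7 and 114 counts in all, and the 3 tested had edgeR adjusted p-values between 0.412 and 0.747.

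By level over the 3 libraries, as the distance between log2(CPM + 1) values after each miRNA's own mean was taken off, the miRNAs nearest to miR-10b-5p were miR-26b-5p, miR-92a-3p, miR-23a-3p, miR-106b-3p and miR-148b-3p. Those nearest to miR-10a-5p were miR-101b-3p, let-7i-5p, miR-27a-3p, miR-191a-5p and miR-199a-3p. With 3 libraries such likeness is a description of these libraries only. By length profile in the stem cell library, among 12 miRNAs with at least 500 counts, the members were nearest to each other, followed by miR-99b-5p at 41.5% of counts from miR-10b-5p and 37.2% from miR-10a-5p, and by miR-100-5p at 42.6% and 38.0%.

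The authors' deposited table of miRNAs raised in Exo-AT lists 45 entries, and miR-10a-5p is among them while miR-10b-5p is not. In the authors' deposited table miR-10a-5p has normalized reads of 67029 and 132211 for Exo-AT replicates 1 and 2 and of 28417 and 9190 for Exo-ADSCs replicates 1 and 2. The means in the authors' deposited table are 99620 and 18803.5, with a fold of 5.30, the highest Exo-AT mean of the table and rank 35 by fold. The columns do not all follow the tag counts. The column headed as Exo-AT replicate 1 equals 5.44 times the counts of the library titled Exo-AT replicate 2, within 5%, for 35 of 43 listed miRNAs compared. The column of Exo-ADSCs replicate 2 equals 1.39 times that library's counts for 25 of 37. For miR-10a-5p that column's 9190, read as CPM, lies near the library's 0.923% of all hairpin counts. The 67029 headed as Exo-AT replicate 1 likewise lies near the 6.81% of Exo-AT replicate 2. Scaled to named totals, these libraries were at 67929 and 90705 CPM. The fold of 5.30 thus draws on columns near the scale of all hairpin counts, where 59.6% of miRNAs were called higher in Exo-AT. The scale of the other columns was not tested. The column headed as Exo-AT replicate 2 followed neither Exo-AT library, with 8 of 43 within 5% of a multiple of replicate 1 and 4 of 43 of replicate 2. Which library the value of 132211 describes cannot be told apart here.

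Across the series, named counts were 97204 in the stem cell library, 9134 in tissue library 1 and 136024 in tissue library 2. Both Exo-AT files carry the same sample name inside, and their counts differed by more than counting error, with a chi-square of 19.2 per degree of freedom over 79 miRNAs and of 3.84 over 30 forms of the pair. Whether they are separate samples or preparations of 1 sample was not tested. Of 6 arms of the stromal hairpins miR-199a, miR-214, miR-143 and miR-145, all had counts in the stem cell library, where miR-143-3p led with 15143 counts, and they summed to 16.0%, 19.9% and 13.4% of named counts. The erythroid list (miR-451, miR-486 and miR-144, with 3 arms found) summed to 3.35%, 5.10% and 16.7%. Nearly all of that sum was miR-486-5p, at 3200, 464 and 22521 counts. In contrast, miR-451-5p was at 55, 2 and 190 counts. Scaled to named totals these were 566, 219 and 1397 CPM, lowest in tissue library 1, where the sum was not. With TMM miR-451-5p stood at -0.01 on the log2 scale and was not called. The third arm, miR-144-3p, was at 4, 0 and 2 counts. The endothelial list (miR-126a, 2 arms) summed to 0.0329%, 0.383% and 0.510%. The leukocyte list (miR-142, miR-223 and miR-150, 5 arms) summed to 0.0154%, 0.0438% and 0.0941%. Its counts were 15, 2 and 35 for miR-142-5p, 0, 0 and 12 for miR-142-3p, 0, 0 and 5 for miR-223-5p, 0, 0 and 7 for miR-223-3p and 0, 2 and 69 for miR-150-5p, which was called higher in Exo-AT. From the other lists, miR-126a-3p (log2 fold change 3.40) and miR-486-5p (0.93) were called higher, and miR-214-3p (-4.06) and miR-143-3p (-0.87) lower. Over all 183 miRNAs 19.1% were called in each direction. In bulk vesicles, fewer vesicles of a cell type and less of a miRNA per vesicle cannot be told apart. The part of these cell types in the members' values was not tested.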

How the data were processed

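Per the file headers, the deposited tag files give whole-number counts for each read sequence and the hairpin to which it was aligned. Novoalign 2.07.11 and rn6 are named in the submitters' processing notes; for trimming and hairpin prediction, the method is not given in the sources used here. Tags have at least 2 reads and at most 28 nt, which bounds the lengths seen. The authors' table gives normalized reads (a score whose factor the headers do not state) and a fold (ratio), per the file headers. For miR-10a-5p the columns headed as Exo-ADSCs replicate 2 and Exo-AT replicate 1 lay near the scale of all hairpin counts. The file of Exo-ADSCs replicate 1 summarises alignments by class of read count and was not used.

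Tags on named hairpins were summed by arm (tag midpoint against hairpin midpoint, after taking off 5 bases counted ahead of each hairpin in the files), and by arm, start and length for read forms. Ends were corrected for insertions and deletions. Tests were two-sided edgeR 4.0.16 quasi-likelihood tests (R 4.3.3, TMM, minimum count 10, minimum total 15), adjusted by Benjamini-Hochberg over all 183 miRNAs or 708 forms and called at 0.05. With 1 Exo-ADSCs library against 2, there was 1 residual degree of freedom, and the lone library was assumed to vary like Exo-AT. Shares have Wilson 95% intervals. A count of 0 was taken to allow 3 counts. Tags with fewer than 2 reads are absent, so this allowance and the bounds built on it cover kept tags only. Mature sequences, positions and neighbours are from RefSeq (GRCr8), in which both hairpins and their 4 mature forms matched.

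Named in the text are both arms, each form with at least 2% of an arm's counts in a library, the family and Hox lists, and the 5 nearest miRNAs by each likeness. Members and lists were chosen with earlier results of these data known. Alternatives tried were DESeq2 1.42.0 and its size factors, total-count scaling, no filter, limma voom 3.58.1, tags of 20 to 25 nt, perfect tags, no shared tags and each Exo-AT replicate left out; scaling to all hairpin counts was added after seeing the data.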

Additional observations from a re-analysis of the deposited data

How the results depend on the processing

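Calls over all 183 miRNAs were 35 higher and 35 lower in Exo-AT, 46 and 19 with total-count scaling, 23 and 30 with DESeq2's size factors, 25 and 41 with limma voom, 42 in all with DESeq2 and 114 in all (109 and 5) with all hairpin counts. Calls over read forms were 158 higher and 163 lower, 261 and 94 with total-count scaling, 129 and 200 with DESeq2's size factors, and 503 in all with all hairpin counts. The miR-10b-5p log2 fold change turned to -0.16 with DESeq2's size factors and with DESeq2 and to -0.094 without shared tags, none of them called. It passed the threshold at 1.70 with tags of 20 to 25 nt, where 23.1% of 130 miRNAs were called higher, and at 3.31 with all hairpin counts. The length filter takes out the short reads on which the pair was selected. Leaving out 1 Exo-AT replicate gave -0.12 to 0.34. The miR-10a-5p value turned to 0.47 with total-count scaling, to 1.34 with tags of 20 to 25 nt and to 2.79 with all hairpin counts, the last 2 called. It was called lower at -0.62 without tags that fit several hairpins, where 21.3% of 178 miRNAs were called lower. Against the median of all miRNAs that value was -0.86, beside -0.78 in the main fit. Leaving out 1 Exo-AT replicate gave -0.49 to -0.29. The share of miR-10a-5p in the pair was 26.2%, 23.3% and 20.6% with tags of 20 to 25 nt, in the same order of libraries. The 17-nt form of miR-10a-5p turned to -0.31 with DESeq2's size factors and to -0.40 without Exo-AT replicate 2, where that of miR-10b-5p turned to -0.23. Without Exo-AT replicate 2 all 19 named forms moved by more than the spread between the Exo-AT replicates (the 19-nt form of miR-10b-5p from -3.12 to -3.92), and without Exo-AT replicate 1 none of the 19 did. With all hairpin counts the forms of miR-10a-5p turned to 1.64 (18 nt), 0.81 (19 nt), 2.13 (17 nt, 1 base later) and 0.72 (18 nt, 1 base later), and those of miR-10b-5p to 1.31, 0.54, 1.10 and 0.21 in the same order. Apart from the scale itself, the cause of these moves was not tested.

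Without an Exo-AT replicate the fit is 1 library against 1 and gives values with no test. No paired analysis was possible because tag counts were used for replicate 2 alone of Exo-ADSCs, so the groups share fewer than 2 replicate numbers. The depth of Exo-AT replicate 1, with 902 counts of miR-10a-5p, limits shares of that miRNA's own reads there to about 3.25 points to a side, and shares within a class of ends are wider, and counts of the 3p arms are too few for a comparison.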
